A study of Mus musculus with 18 samples.

Results

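The S100 proteins are small calcium-binding proteins whose genes lie mostly in one cluster on mouse chromosome 3. The 10 genes described here are S100a1, S100a3, S100a4, S100a6, S100a8, S100a9, S100a10, S100a11, S100a13 and S100b. Every probe set whose platform annotation names only one of them was taken, whatever its signal. This gave 13 probe sets of 9 genes (chip A held 12 and chip B 1) out of 45037 probe sets on both chips. For S100a11 there was 1 probe set, which the annotation also assigns to Gm12854 and S100a11-ps, so its signal belongs to no single gene and is given apart.

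RNA from 3 sorted populations of mouse mammary cells was hybridised to the Affymetrix chips MOE430A and MOE430B, with 3 RNA samples per population and each sample on both chips. The MaSC samples came from a sort rich in mammary stem cells: the labels estimate 1 stem cell per 50 to 100 cells, and 2000 to 4000 cells gave the RNA of a sample. The MYO samples hold basal, or myoepithelial, cells at an estimated purity of 94%, from 3000 to 24000 cells, which resemble the stem cell sort in phenotype but hold few stem cells. The CFC samples are rich in progenitors that grow into colonies in vitro, estimated at 1 per 10 sorted cells, and used 3000 to 4000 cells. Magnetic negative selection before flow sorting gave MaSC and CFC, whereas MYO cells were enriched immunomagnetically before their sort. The study set the stem cell sort against the other populations to look for genes specific to stem cells. No strain, age or treatment of the mice is stated. In such mixed fractions, fewer cells of a type and less RNA per cell cannot be told apart. The labels state biological triplicates for CFC only, so the p-values may measure a spread that is partly technical.

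S100 proteins work mostly as dimers, and each subunit holds a pair of EF-hand loops. Binding of calcium opens a surface that grips a target, such as an annexin, a myosin or tropomyosin, and some members are also secreted and act on receptors such as Ager and Tlr4. The mammary epithelium has an outer basal layer of contractile myoepithelial cells and an inner luminal layer, and S100 proteins are known from both layers and from the immune, nerve and fat cells around them.

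In the RefSeq gene table of the assembly GRCm38.p6, protein-coding genes run along chromosome 3 in the order S100a1, S100a13, S100a14, S100a16, S100a3, S100a2, S100a4, S100a5, S100a6, S100a7a, S100a8 and S100a9. There are 56 further protein-coding genes before the neighbours S100a11 and S100a10, and S100b lies on chromosome 10. The RefSeq promoter table held windows for 9 of the 10 genes, 12 windows in all, each reaching 250 bases before and 50 bases after the start of a transcript. The part before the start is shown for S100a6, called lower in MYO than in CFC, and for S100a11, whose shared probe set was also called lower in MYO. The stretch between the divergent starts of S100a1 and S100a13 is shown because the probe sets of these neighbours did not give the same pattern. The probe sets of S100a1 also differed from each other, and none of either gene was called. The S100a6 stretch is chr3:90612644-90612893, that of S100a11 is chr3:93520246-93520495 and that between S100a1 and S100a13 is chr3:90514331-90514434, all on the plus strand of GRCm38.p6. Capitals mark AP-1 matches.
S100a6: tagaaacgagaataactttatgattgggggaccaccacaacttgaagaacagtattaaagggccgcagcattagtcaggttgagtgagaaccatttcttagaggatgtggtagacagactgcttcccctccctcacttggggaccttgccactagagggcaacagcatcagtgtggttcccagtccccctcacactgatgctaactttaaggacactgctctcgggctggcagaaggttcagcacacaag
S100a11: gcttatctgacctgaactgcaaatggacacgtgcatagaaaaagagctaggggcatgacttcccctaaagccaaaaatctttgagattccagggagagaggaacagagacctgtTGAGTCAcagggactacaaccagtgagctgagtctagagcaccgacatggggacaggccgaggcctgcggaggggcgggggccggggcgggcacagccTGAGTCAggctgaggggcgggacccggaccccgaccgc
S100a1 and S100a13: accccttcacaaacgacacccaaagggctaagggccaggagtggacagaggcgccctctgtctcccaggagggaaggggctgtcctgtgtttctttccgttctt

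Both strands were searched for the letters of 4 motifs. The TATA box (TATAAA) occurs in 13.6% of all 32851 promoter windows and the AP-1 site (TGANTCA) in 7.81%. The E-box of the Snail type (CAGGTG) occurs in 20.2% and the STAT site (TTCNNNGAA) in 8.3%. None of these letters were found in the windows of S100a6, S100a1, S100a13 or S100b. The S100a11 window held 2 AP-1 matches, whose first bases lie 136 and 38 bases before the start. The TATA letters were found for 4 members, S100a3 (in 1 of its windows), S100a4, S100a8 and S100a9. The E-box letters were found for S100a3 and S100a9, and no match overlapped another.

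The levels below are MAS5 signals, linear intensities that the authors scaled alike on every array, given for RNA samples 1, 2 and 3 of a population. Each array had a mean signal of 1500 after its lowest and highest 2% were removed, and 70.0% to 75.7% of the chip A signals reached 300. Basal genes were higher and luminal genes lower in both MaSC and MYO than in CFC: the summed signal of Krt5, Krt14, Trp63 and Acta2 was 325661 to 623140 in MaSC, 392544 to 593300 in MYO and 9168 to 20034 in CFC. The sum of Krt8, Krt18, Krt19, Cd24a and Epcam was 111294 to 146813 in MaSC, 38644 to 121408 in MYO and 340966 to 571373 in CFC. Against CFC, limma called all 4 basal genes higher in both populations, and called 3 of the 5 luminal genes lower in MaSC and all 5 in MYO. Chip A was scanned on 2 days, with MaSC3 and MYO2 on one day and the other samples, all CFC samples included, on the other. Chip B was scanned on 3 days: MaSC2 and MYO3 shared a day, MaSC3 had its own, and the remaining samples, all CFC samples included, shared the third.

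**Figure D1:**
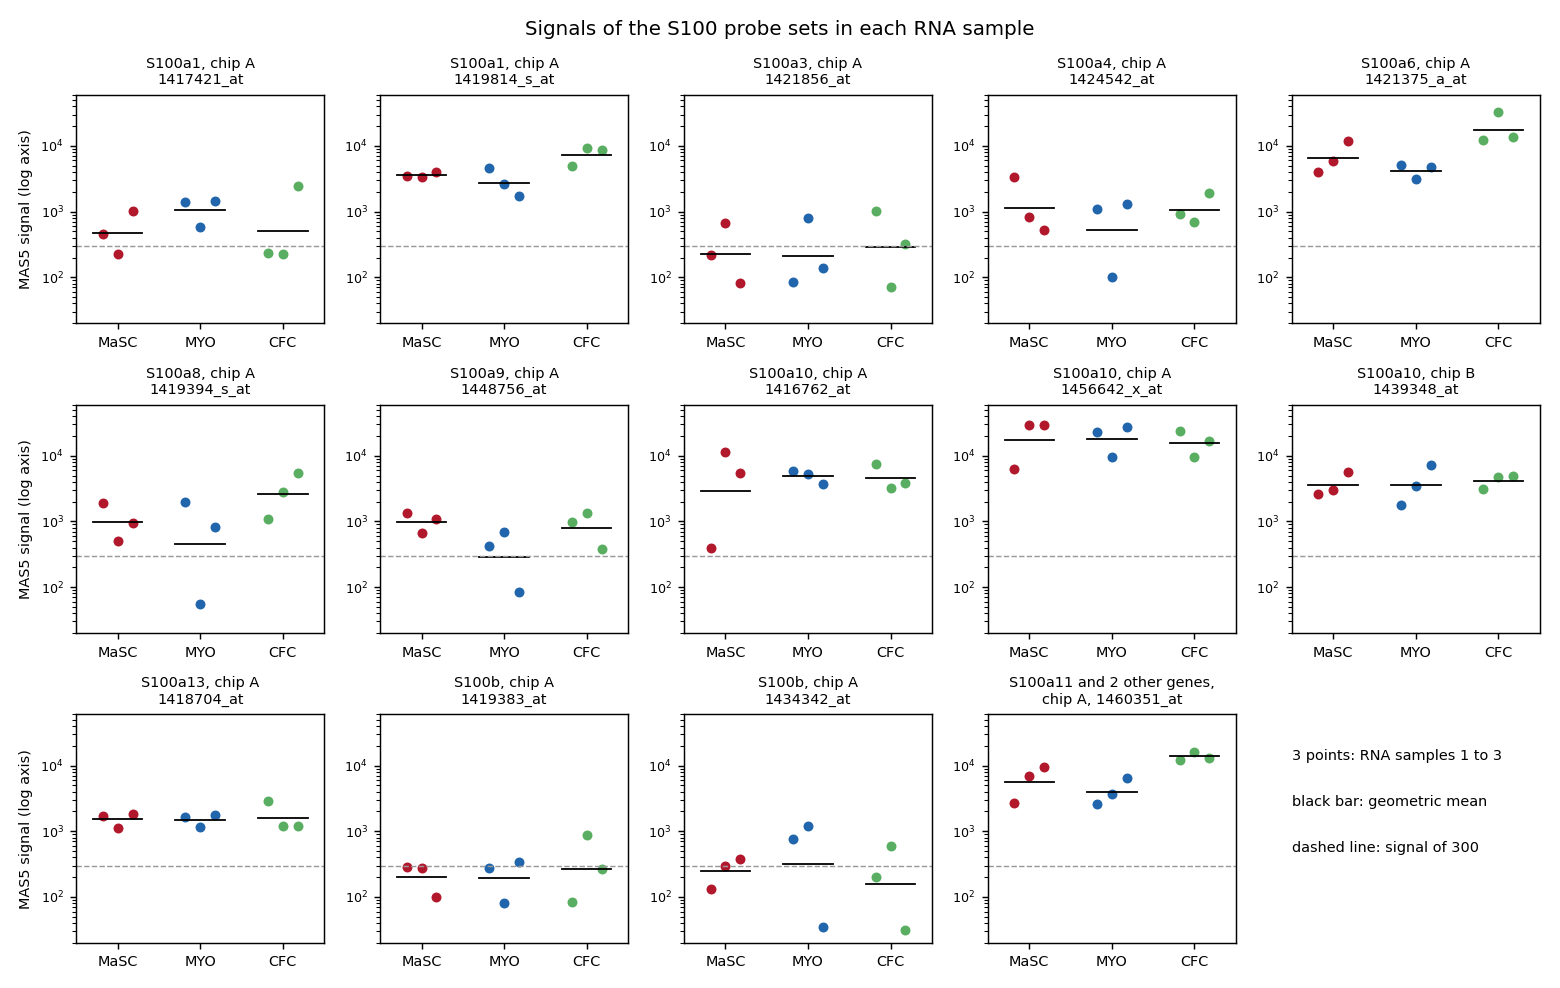
Signal of each S100 probe set (log axis) in the 3 RNA samples of MaSC, MYO and CFC; each point is 1 RNA sample, the black bar is the geometric mean of its population, and the dashed line marks a signal of 300. The MaSC and MYO points of S100a6, of the S100a1 probe set 1419814_s_at and of the probe set shared with S100a11 lie below all CFC points, and the populations overlap in the other panels.

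Among the 9 members with a probe set of their own, S100a6 was the 1 with a called difference between the populations. It was lower in MYO than in CFC, and its MaSC samples also lay below all CFC samples without passing the test. The S100a6 gene encodes calcyclin, known as a gene induced in proliferating cells, whose protein binds annexins and the calcyclin-binding protein Cacybp. Its probe set 1421375_a_at gave signals of 3955, 5901 and 11816 in the MaSC samples, 5074, 3127 and 4711 in the MYO samples, and 12462.5, 33225 and 13535 in the CFC samples. The highest MaSC sample came close to the lowest CFC sample, and CFC2 stood far above the other CFC samples.

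On the log2(signal + 150) scale, S100a6 fell in MYO against CFC, with a log2 fold change of -2.04 ± 0.43 (SE, n = 3 each, 95% interval -2.92 to -1.15) and an adjusted p of 0.0057 in limma. This is a 4.11-fold lower level in MYO on that scale. Without CFC replicate 2 the difference was -1.59 and missed the threshold (limma adjusted p = 0.123), as it did without MYO replicate 2 (-1.83, limma adjusted p = 0.0586) and in a fit without a trend of the variance on the signal (limma adjusted p = 0.207). In MaSC against CFC the difference was -1.43 ± 0.43 (SE, n = 3 each, interval -2.31 to -0.54), with a limma adjusted p of 0.137. Without MaSC replicate 3 it was -1.85 and passed (limma adjusted p = 0.0435). MaSC and MYO differed by 0.61 ± 0.43 (SE, n = 3 each, interval -0.27 to 1.499, limma adjusted p = 0.999), and their samples overlapped. The limma F test over the 3 populations gave an adjusted p of 0.0159. Within the scan day that holds all CFC samples, S100a6 differed by -1.85 in the 2 MaSC samples and by -1.83 in the 2 MYO samples against the 3 CFC samples. These values repeat those without MaSC replicate 3 and without MYO replicate 2, the samples of the other day, and are not a separate check. The luminal gene sum was also lower in every MaSC and MYO sample than in every CFC sample. Inside the populations its order differed from that of S100a6. CFC1 and MYO2 had the highest luminal sum of their populations and the lowest S100a6 signal, while MaSC1 was the lowest MaSC sample in both. The genes in the sum differed in this. Cd24a and Krt19 followed the sample order of S100a6 in CFC and in MaSC but not in MYO. Epcam did so in MaSC only, and Krt8 and Krt18 in no population. The part of luminal content in the S100a6 difference was not tested.

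Over the 9 arrays, the named gene with the signal pattern most like that of S100a6 was Tspan13, a tetraspanin gene. The root mean square difference between the centred log2 values was 0.30. The next was Slc35a5, a gene of the nucleotide sugar transporter family, at 0.33, against a median of 1.25 over the 17915 probe sets compared. Probe sets of several genes, without a gene or with a clone-type name were left out. The limma F test called Tspan13 (adjusted p = 0.00477) but not Slc35a5 (adjusted p = 0.614). Among the tested chip A probe sets that name a single S100 gene, the nearest pair was S100a6 and S100a1 (1419814_s_at), at 0.60. The probe set shared with S100a11 was not part of this comparison.

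Of the 11 S100 probe sets of chip A that reached a signal of 300 on at least 3 of the 9 arrays and were tested, 1 was called lower in MYO than in CFC at an adjusted p under 0.05 and 0 higher. Over all 20159 probe sets tested on chip A, 0.541% were called lower and 1.17% higher in this comparison. At an unadjusted p under 0.05 there were 3, S100a6, S100a1 (1419814_s_at) and S100a8, all lower in MYO, beside 1605 (7.96%) of all tested in either direction. In MaSC against CFC, 0 S100 probe sets were called in either direction in limma, beside 0.357% lower and 0.818% higher over all; at an unadjusted p under 0.05 there were 2, S100a1 (1419814_s_at) and S100a6, beside 1688 (8.37%) of all, and no other tool was run. In MaSC against MYO limma called 0 probe sets of the whole chip in either direction (0% of those tested), and at an unadjusted p under 0.05 there were 0 S100 probe sets, beside 768 of all. The limma F test called 1 of the 11, beside 1.56% of all. The median log2 fold change of the 11 probe sets was -0.15 in MaSC against CFC and -0.31 in MYO against CFC, beside -0.02 and -0.01 over all tested.

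**Figure D2:**
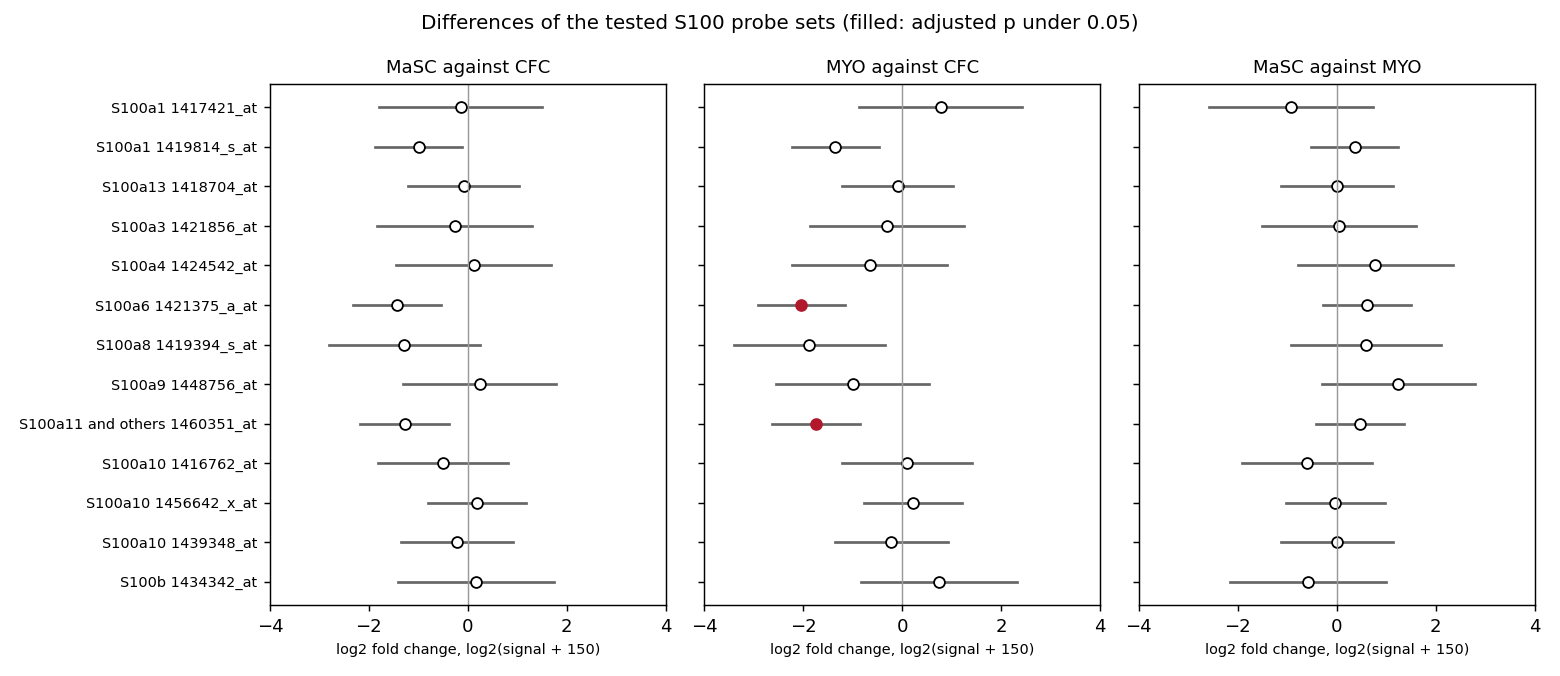
Log2 fold change on the log2(signal + 150) scale (points) with its 95% interval (lines) for each tested S100 probe set and the probe set shared with S100a11, in MaSC against CFC, MYO against CFC and MaSC against MYO; filled points have an adjusted p under 0.05 in limma. S100a6 and the shared probe set are filled in MYO against CFC, at -2.04 and -1.75, and no point is filled in the other comparisons.

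S100a11 encodes a partner of annexin A1 that is abundant in epithelia. The probe set 1460351_at, which lists S100a11, S100a11-ps and Gm12854 together, gave signals of 2651, 6825 and 9513 in the MaSC samples, 2642, 3712 and 6438 in the MYO samples, and 12272, 16153 and 13144 in the CFC samples. All MaSC and MYO samples were below all CFC samples, and CFC varied the least, with a highest signal 1.32 times its lowest. In MYO against CFC it fell by 1.75 on the log2 scale (interval -2.64 to -0.86, limma adjusted p = 0.0251), a call that leaving out any single CFC sample, MYO1 or MYO2 ended. In MaSC against CFC the difference was -1.28 (interval -2.17 to -0.39, limma adjusted p = 0.241). How much of this signal comes from S100a11 was not tested.

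S100a1, known for its part in calcium handling of heart and skeletal muscle, had 2 probe sets that did not give the same picture. The probe set 1419814_s_at gave 3435, 3395 and 4030 in the MaSC samples, 4689, 2657 and 1704 in the MYO samples, and 4935, 9313 and 8592 in the CFC samples. All MaSC and MYO samples were below all CFC samples, though MYO1 came close to CFC1. The log2 fold change was -0.995 ± 0.43 in MaSC (SE, n = 3, limma adjusted p = 0.491) and -1.35 ± 0.43 in MYO (SE, n = 3, limma adjusted p = 0.152), and neither was called. The probe set 1417421_at gave 457, 229.6 and 1023 in the MaSC samples, 1412, 584 and 1457 in the MYO samples, and 231, 226 and 2418 in the CFC samples. Here 1 CFC sample was the highest of all 9 and the other CFC samples were among the lowest, and the log2 fold change of MYO against CFC was 0.78 ± 0.81 (SE, n = 3 each, limma adjusted p = 0.922). The suffix _s_at marks probes shared by several transcripts, which may belong to different genes.

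By the simple rule that the samples of both populations do not overlap, 2 of the 11 probe sets, S100a6 and S100a1 (1419814_s_at), were lower in MaSC than in CFC, beside 7.43% of all tested. The same 2 probe sets were lower in MYO than in CFC, beside 7.36% of all. None of the 11 lay above CFC without overlap, beside 6.19% for MaSC and 6.71% for MYO. Between MaSC and MYO no S100 probe set was free of overlap, beside 4.08% higher and 4.1% lower over all.

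S100a13, whose gene starts back to back with S100a1, encodes a protein that takes part in the release of FGF1 and IL-1 alpha, which lack a signal peptide. Its probe set 1418704_at gave 1695, 1124 and 1822 in the MaSC samples, 1653, 1174 and 1767 in the MYO samples, and 2937, 1197 and 1185 in the CFC samples. MaSC and MYO covered almost the same range, and CFC1 was the 1 sample above it. The log2 fold change was -0.09 both in MaSC (interval -1.21 to 1.04) and in MYO (interval -1.22 to 1.03) against CFC, so a change of about 2-fold either way is inside the error. The sign of both turned without CFC1, and also without MaSC2 for the MaSC and without MYO2 for the MYO difference.

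S100a10 encodes p11, which does not need calcium and joins annexin A2 in a complex at the cell surface that binds plasminogen. It had 3 probe sets, and none passed the F test (limma adjusted p of 0.970 for 1416762_at, 0.994 for 1456642_x_at and 1.00 for 1439348_at). The probe set 1456642_x_at gave 6384, 29319 and 29174 in the MaSC samples, 22858, 9489 and 26973 in the MYO samples, and 23406, 9610 and 16551 in the CFC samples. All 3 populations covered much the same range, and MaSC1 was the lowest sample. Its log2 fold change was 0.19 in MaSC (interval -0.81 to 1.18) and 0.22 in MYO (interval -0.78 to 1.21) against CFC. The sign turned in both without CFC2, and in MaSC also without MaSC3 (-0.17). It turned under 3 of 21 alternatives in MaSC and 2 of 21 in MYO. The suffix _x_at marks a set with probes that also match other sequences.

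The probe set 1416762_at of S100a10 gave 397, 11528 and 5526 in the MaSC samples, 5760, 5334 and 3756 in the MYO samples, and 7479, 3246 and 3873 in the CFC samples. MaSC1 was again the lowest, and the highest MaSC sample was 29.0 times the lowest. On chip B, 1439348_at gave 2612, 3011 and 5757 in the MaSC samples, 1778, 3486 and 7174 in the MYO samples, and 3090, 4828 and 4876 in the CFC samples, with MYO1 the lowest. It was not called in any comparison. Its highest samples, MYO3 and MaSC3, were scanned on other days than the CFC samples. Of the 21394 probe sets tested on chip B, 0.0795% were called higher and 0.0187% lower in MaSC against CFC, 0.108% higher and 0.0187% lower in MYO against CFC, 0% in MaSC against MYO and 0.14% in the F test.

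S100a8 and S100a9 encode the subunits of calprotectin, which is abundant in neutrophils and acts on Tlr4 once secreted. The S100a8 probe set 1419394_s_at gave 1906, 499 and 953 in the MaSC samples, 1988, 55.3 and 827 in the MYO samples, and 1107, 2822 and 5527 in the CFC samples. CFC2 and CFC3 were the highest samples, but MaSC1 and MYO1 were above CFC1. The log2 fold change was -1.28 ± 0.74 in MaSC (SE, n = 3, limma adjusted p = 0.693) and -1.88 ± 0.74 in MYO (SE, n = 3, limma adjusted p = 0.381).

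The S100a9 probe set 1448756_at gave 1341, 659 and 1070 in the MaSC samples, 423, 684 and 84.1 in the MYO samples, and 990, 1327 and 381 in the CFC samples. MYO had the lowest sample and overlapped with both other populations. The log2 fold change was -0.999 ± 0.76 in MYO against CFC (SE, n = 3 each, limma adjusted p = 0.860) and 1.24 ± 0.76 in MaSC against MYO (SE, n = 3 each, limma adjusted p = 0.999). The order of the samples differed between these partner genes: CFC3 was the highest of all samples for S100a8 and the lowest CFC sample for S100a9.

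The summed signal of 8 neutrophil genes on chip A (of 10 listed) was 6574 to 7608 in MaSC, 5534 to 7879 in MYO and 5695 to 9914 in CFC. In limma 0 of them were called in either comparison with CFC, and at an unadjusted p under 0.05 there was 1, Mmp8 in MaSC. On all of chip A, 0.818% were called higher and 0.357% lower in MaSC, and 1.17% and 0.541% in MYO. The shares with an unadjusted p under 0.05 were 8.37% and 7.96%. Each of the 8, among them Ngp, Camp, Mpo and Elane, reached a signal of 300 on at least 4 arrays. The sum of 8 macrophage and leukocyte genes was 7499 to 16567 in MaSC, 10255 to 12871 in MYO and 8822 to 12981 in CFC. These ranges overlap, and the part of such cells in the S100a8 and S100a9 signals was not tested.

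S100a4 encodes metastasin, a partner of nonmuscle myosin IIA that is known from fibroblasts and motile cells. Its probe set 1424542_at gave 3393, 841 and 517 in the MaSC samples, 1097, 103 and 1321 in the MYO samples, and 906, 691 and 1910 in the CFC samples. MaSC1 was the highest sample and MYO2 the lowest, and the F test gave a limma adjusted p of 0.966. The summed signal of 8 fibroblast genes was 12051 to 30294 in MaSC, 14769 to 68363 in MYO and 13044 to 20543 in CFC, with MaSC1 the highest of its population and MYO2 the highest of all. Of these genes, Col3a1 was called higher in MYO than in CFC, beside 1.17% of all probe sets tested on chip A. An unadjusted limma p under 0.05 was found for 4 of the 8 in MYO and 1 in MaSC, all higher than in CFC. The shares over all, in either direction, were 7.96% and 8.37%. The median log2 fold change of the list was 1.40 in MYO and 0.73 in MaSC. The part of fibroblasts in the S100a4 signal was not tested.

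S100a3, known as a protein of the hair cuticle, was dim on most arrays. Its probe set 1421856_at gave 221, 660 and 82.8 in the MaSC samples, 84.2, 804 and 138 in the MYO samples, and 1035, 71.8 and 316 in the CFC samples. Each population had at least 1 sample above a signal of 300 and at least 1 below 100, so each population spread over most of the whole range (limma F test adjusted p = 0.995). The summed signal of 6 keratinocyte and hair genes was 9080 to 26632 in MaSC, 8861 to 19861 in MYO and 12905 to 17820 in CFC, and these ranges overlap. Of these genes 1, Ivl, stayed under 300 on all 9 arrays. The part of such cells in the S100a3 signal was not tested.

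S100b encodes a protein known from glia, Schwann cells, melanocytes and fat cells. The probe set 1419383_at gave 281, 275 and 101 in the MaSC samples, 276, 81.0 and 337 in the MYO samples, and 84.1, 890 and 266 in the CFC samples. Only MYO3 and CFC2 reached 300, so it missed the filter and was not tested. The probe set 1434342_at gave 131, 296 and 383 in the MaSC samples, 754, 1183 and 34.5 in the MYO samples, and 200.2, 601 and 31.4 in the CFC samples. MYO1 and MYO2 were the highest samples and MYO3 among the lowest, and the log2 fold change of MYO against CFC was 0.74 ± 0.77 (SE, n = 3 each, limma adjusted p = 0.922).

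The summed signal of 7 Schwann cell genes (of 9 listed) was 23196 to 26247 in MaSC, 28660 to 41503 in MYO and 15501 to 18480 in CFC. The 3 ranges do not overlap. Of these Schwann cell genes, Pmp22 was called higher in MaSC and MYO, Cnp higher in MYO, and Erbb3 lower in both, against CFC. On chip A as a whole, 1.17% were called higher and 0.541% lower in MYO, and 0.818% and 0.357% in MaSC. An unadjusted limma p under 0.05 was found for 5 of the 7 in MYO and 4 in MaSC, beside 7.96% and 8.37% of all. Their median log2 fold change was 1.38 in MYO and 0.98 in MaSC. Pmp22 encodes a myelin protein and Erbb3 a receptor of neuregulin, and both are also expressed in epithelia. Mbp and Sox10 were higher in every MaSC and MYO sample than in every CFC sample without being called. The sum of 5 fat cell genes was 7526 to 28916 in MaSC, 1886 to 25386 in MYO and 4107 to 8420 in CFC. Whether other cells add to the S100b signal was not tested.

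Of 15 other genes of the S100 and fused S100 family, 11 were on the arrays as single genes and 9 were tested. In limma 0 were called in any comparison, and at an unadjusted p under 0.05 there was 1, S100g in MYO against CFC. In that comparison 1.17% of all probe sets tested on chip A were called higher and 0.541% lower. The share with an unadjusted p under 0.05 was 7.96% on chip A and 5.33% on chip B. The smallest adjusted p of the list against CFC belonged to S100g (calbindin-D9k, a calcium carrier of the gut), with 1378, 784 and 645 in the MaSC samples, 1215, 899 and 1211 in the MYO samples, and 47.5, 106 and 755 in the CFC samples (limma adjusted p = 0.604 in MaSC and 0.457 in MYO). Its MYO samples were all above CFC, and MaSC3 was below CFC3. S100a14 and S100a16, the epithelial members that lie between S100a13 and S100a3, overlapped between all populations. S100a14 averaged 2561 ± 623 in MaSC, 3442 ± 1455 in MYO and 4027 ± 1225 in CFC (SD, n = 3 each). S100a16 averaged 11992 ± 6830 in MaSC, 12638 ± 1810 in MYO and 15350 ± 4862 in CFC (SD, n = 3 each).

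Among 10 tested receptor and signalling genes, Cd14, a coreceptor of Tlr4, fell in MYO against CFC and the other 9 were not called. Over all probe sets tested on chip A, 0.541% were called lower and 1.17% higher in MYO. At an unadjusted limma p under 0.05 there were 2 in MYO, Cd14 and Alcam, and 2 in MaSC, Tlr4 and Cd14. The shares over all were 7.96% in MYO and 8.37% in MaSC. Cd14 gave 4582, 3138 and 10484 in the MaSC samples, 599, 2424 and 8424 in the MYO samples, and 10964, 21232 and 53288 in the CFC samples. All MaSC and MYO samples were below all CFC samples, with a log2 fold change of -3.20 ± 0.60 in MYO (SE, n = 3, limma adjusted p = 0.00157) and a limma adjusted p of 0.101 in MaSC. Tlr4 averaged 581 ± 450 in MaSC, 1128 ± 993 in MYO and 2110 ± 773 in CFC (SD, n = 3 each, limma adjusted p of 0.443 in MaSC and 0.794 in MYO). Ager, the receptor for many S100 proteins, reached 300 on 3 of the 9 arrays and was not called. The median log2 fold change of the list was -0.16 in MaSC and -0.09 in MYO against CFC.

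Of 21 tested target and partner genes, 2 were called higher in MYO than in CFC and 1 lower, and 1 was called in each direction in MaSC against CFC. Over all probe sets tested on chip A, 1.17% were called higher and 0.541% lower in MYO, and 0.818% higher and 0.357% lower in MaSC. At an unadjusted limma p under 0.05 there were 5 of the list in MYO and 4 in MaSC, beside 7.96% and 8.37% of all. Anxa1, the annexin bound by S100a11, gave 6442, 15219 and 14180 in the MaSC samples, 9194, 12353 and 8141 in the MYO samples, and 95380, 39718 and 39993 in the CFC samples. It fell in both, by 2.24 on the log2 scale in MaSC (SE 0.41, n = 3, limma adjusted p = 0.00213) and by 2.43 in MYO (SE 0.41, n = 3, limma adjusted p = 0.000432). The highest MaSC sample was well below the lowest CFC sample, and MaSC and MYO overlapped.

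Tpm1, which encodes an actin-binding tropomyosin of contractile cells, gave 3512, 6385 and 9738 in the MaSC samples, 4013, 9910 and 5248 in the MYO samples, and 678, 2433 and 1623 in the CFC samples. It rose in both, with log2 fold changes of 1.99 in MaSC (limma adjusted p = 0.0315) and 1.97 in MYO (limma adjusted p = 0.0229), though the MaSC call ended without CFC1, CFC3, MaSC2 or MaSC3 and the MYO call without CFC1, CFC3, MYO2 or MYO3. Myh9, the nonmuscle myosin heavy chain bound by S100a4, gave 50615, 89396 and 105144 in the MaSC samples, 100364, 115926 and 114623 in the MYO samples, and 31318, 38959 and 28266 in the CFC samples. It rose by 1.75 on the log2 scale in MYO (limma adjusted p = 0.0179), a call that ended without any single CFC sample, MYO1 or MYO2, and its MaSC samples were also all above CFC (limma adjusted p = 0.222).

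The partner of S100a10, Anxa2, gave 17705, 32941 and 41596 in the MaSC samples, 11677, 26189 and 34459 in the MYO samples, and 54732, 35957 and 25375 in the CFC samples, and was not called (limma adjusted p of 0.920 in MaSC and 0.749 in MYO). Cacybp, the partner of S100a6, overlapped between all populations and averaged 6804 ± 1495 in MaSC, 7345 ± 5965 in MYO and 5609 ± 1017 in CFC (SD, n = 3 each). Ahnak, a large scaffold that binds the complex of S100a10 and Anxa2, was below CFC in every MYO sample without passing the test (limma adjusted p = 0.251). The median log2 fold change of the list was -0.19 in MaSC and 0.04 in MYO against CFC.

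**Figure D3:**
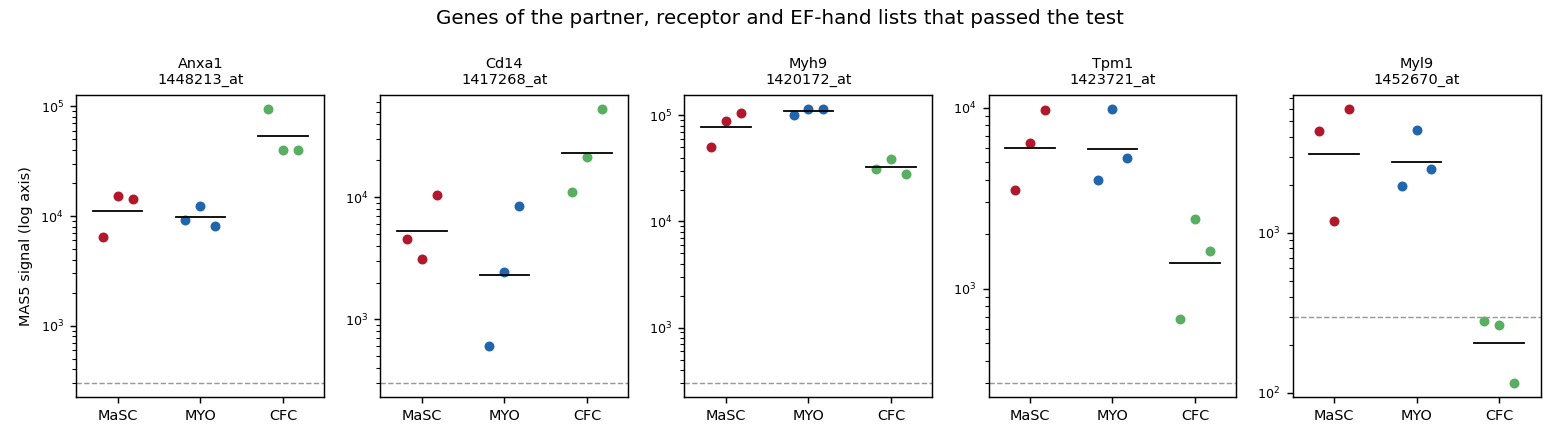
Signals (log axes, each panel with its own range) of the 5 genes called in the receptor, partner and EF-hand lists, in the 3 RNA samples of MaSC, MYO and CFC; bars are geometric means and the dashed line, where in range, marks a signal of 300. Anxa1 and Cd14 lie lower in MaSC and MYO than in CFC, Myh9, Tpm1 and Myl9 lie higher, and all CFC samples of Myl9 are under 300.

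Of 15 tested genes of other EF-hand calcium sensors, Myl9 rose in both populations and the other 14 were not called. Over all probe sets tested on chip A, 0.818% were called higher in MaSC and 1.17% in MYO. At an unadjusted limma p under 0.05 there were 4 of the list in MaSC and 5 in MYO, beside 8.37% and 7.96% of all. Myl9, the regulatory light chain of smooth muscle myosin, gave 4318, 1187 and 6001 in the MaSC samples, 1954, 4434 and 2496 in the MYO samples, and 281, 265 and 115 in the CFC samples. The log2 fold change was 3.20 in MaSC (limma adjusted p = 0.00356, or 0.0690 without MaSC replicate 3) and 3.02 in MYO (limma adjusted p = 0.00369, or 0.0763 without MYO replicate 2). The median log2 fold change of the list was 0.33 in MaSC and 0.51 in MYO against CFC, beside -0.02 and -0.01 over all probe sets tested on chip A.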

How the data were processed

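The authors deposited MAS5 signals, linear intensities with 1 value for each probe set of an array. The submitters' processing notes name MAS5 and no version. Arcturus PicoPure was used to prepare the RNA, per the labels' protocols. The deposited handling records hold values of another kind (chip, sample and scan day) and were used for the scan day. The authors' scaling was kept.

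From the signals, log2(signal + 150) was taken, so fold changes of dim genes are understated. A probe set was tested if it reached 300 on 3 or more of its chip's 9 arrays, which left 20159 on chip A and 21394 on chip B. One limma 3.58.1 fit per chip (R 4.3.3, lmFit and eBayes with a trend, 3 RNA samples per population, 6 residual degrees of freedom before moderation) gave the 3 contrasts and an F test, adjusted by Benjamini-Hochberg over the chip. A call is an adjusted p under 0.05. The scripts were tested on simulated data. The number of arrays limits the precision.

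Genes were named from the platform annotation, and each list gene was counted by 1 probe set (chip A first, then the brightest by mean log2 signal). The S100 genes, all their probe sets and the lists were chosen with earlier results of these data known. Named genes are all S100 members, up to 4 called genes of a list and the 2 genes with the most similar pattern. Anxa2, Cacybp, Ahnak, Tlr4, Alcam, Ager, S100g, S100a14, S100a16, Ivl, Mbp, Sox10 and the neutrophil genes were named after their values were seen. Alternatives were other pseudocounts (15 and 450), filters (none and 750), normalizations, moderation without a trend, array weights, replicate and scan day blocks, fits of the 2 populations alone and each RNA sample left out.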

Additional observations from a re-analysis of the deposited data

How the results depend on the processing

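With eBayes without a trend, the counts of called S100 probe sets were 0 in MYO against CFC and 0 in the F test, and limma called 39 probe sets of both chips in MaSC against CFC, 118 in MYO against CFC and 66 in the F test, in place of 258, 372 and 345. When each RNA sample was left out in turn, the count of called S100 probe sets ranged from 0 to 1 in MaSC against CFC, in MYO against CFC and in the F test; over all probe sets, MaSC against CFC had 159 calls without CFC2 and 171 without CFC3, and the F test 220 without CFC2. The sign turned for S100a10 (1456642_x_at), whose log2 fold change ranged from -0.18 to 0.91 in MaSC and from -0.13 to 0.67 in MYO against CFC with 1 RNA sample left out, and for S100a13, from -0.29 to 0.31 and from -0.30 to 0.31. Of 36 differences of S100 probe sets, 21 changed sign under some alternative, the largest of them 0.78 in size, and 2 were called under any alternative, both of S100a6. The S100a6 call in MYO against CFC held in 18 of 21 alternatives (-2.29 to -1.59, limma adjusted p from 0.000769 to 0.207), and that of the probe set shared with S100a11 in 14 of 21, being lost also under median centring (0.0677) and without a trend (0.320). The calls of Anxa1 and Cd14 were lost without a trend (limma adjusted p of 0.189 in MaSC and 0.0877 in MYO for Anxa1, 0.136 for Cd14), as was Myl9 in MaSC (0.0695). Myh9 lost its call in 8 of 21 alternatives, and Tpm1 in 9 of 21 in MaSC and 7 of 21 in MYO. Little sign of a pairing by replicate number was seen: 1 of 9 correlations between deviations of same-numbered samples on chip A exceeded 0.1 (range -0.11 to 0.12). Such correlations cannot settle whether same-numbered samples were prepared together. With the replicate block, 0, 1, 0 and 1 S100 probe sets were called in MaSC against CFC, MYO against CFC, MaSC against MYO and the F test, as without it, and 274, 380, 0 and 358 over all. In MaSC against MYO limma called 1 probe set of all with array weights and 1 without MYO3, neither of them of S100 genes. The causes of these changes were not tested.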
